A study of Homo sapiens with 12 samples.

Results

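The solute carriers are the membrane proteins that move nutrients, ions, metals, vitamins and drugs into and out of cells and organelles. Their genes carry symbols made of SLC, a family number, a letter and a member number. The genes described here are those with such a symbol, without the SLC25 mitochondrial carriers and the SLC29 nucleoside transporters, for which a probe was detected (detection p under 0.01) on at least 3 arrays. Of 309 genes with such a symbol and a probe on the array, 172 met this rule, among 11808 genes tested in all. The other 137 were not measured, and 124 of these were detected on 0 arrays.

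The study profiled RNA on 12 Illumina bead arrays. Each of its 4 groups held 3 arrays, which the labels call biological replicates. These were HCC827-Del-TM cells treated with decitabine (2.5 µM) and vorinostat (1 µM) for 72 h, HCC827-Del-TM cells given DMSO, HCC827-Del cells with the same treatment, and HCC827-Del cells given DMSO. HCC827 is a human lung adenocarcinoma line, and every group carries the EGFR deletion L747-S752, with T790M in addition in HCC827-Del-TM. T790M is a change in the EGFR kinase domain known for resistance to EGFR inhibitors. Decitabine inhibits DNA methyltransferases and vorinostat inhibits histone deacetylases, and since they were only given together, their separate effects cannot be told apart. The labels do not say whether each line is 1 clone, so a difference between the lines cannot be told apart from a difference between clones.

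Solute carriers work as facilitators that let a substrate run down its gradient, as symporters that pull it in with sodium or protons, or as exchangers that trade one substrate for another. In epithelial tumour cells, SLC2 genes are known for glucose uptake, SLC16 genes for moving lactate and other monocarboxylates, and the SLC7A5 and SLC3A2 pair for exchange of large neutral amino acids. Some carriers, among them SLC7A5 and part of the SLC16 proteins, reach the cell surface only with an accessory glycoprotein.

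Since decitabine acts on methylated CG sites, the promoters of 5 members are shown with every CG in capitals. They are SLC2A14 and SLC47A2, detected in both lines only after treatment, SLC2A10 and SLC1A7, higher after treatment in HCC827-Del, and SLC16A9, lower after treatment. Each is a 300-base window that lies mostly before the gene's start, from RefSeq GRCh38.p14, 5′ to 3′ on the gene's own strand. DNA methylation was not measured, so a CG is only a match of letters. The SLC2A14 signal cannot be told apart from that of the nearly identical SLC2A3, so its detection after treatment is uncertain. The windows are chr12:7872866-7873165 on the minus strand for SLC2A14, chr17:19718930-19719229 on the minus strand for SLC47A2, chr20:46709399-46709698 on the plus strand for SLC2A10, chr1:53142589-53142888 on the minus strand for SLC1A7 and chr10:59710030-59710329 on the minus strand for SLC16A9.
SLC2A14: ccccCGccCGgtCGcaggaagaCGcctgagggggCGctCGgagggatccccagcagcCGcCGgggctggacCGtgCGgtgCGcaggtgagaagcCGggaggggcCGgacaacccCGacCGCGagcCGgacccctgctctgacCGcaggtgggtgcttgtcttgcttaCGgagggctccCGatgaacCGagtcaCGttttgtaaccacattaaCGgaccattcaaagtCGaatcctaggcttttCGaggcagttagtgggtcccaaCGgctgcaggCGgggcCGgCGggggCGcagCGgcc
SLC47A2: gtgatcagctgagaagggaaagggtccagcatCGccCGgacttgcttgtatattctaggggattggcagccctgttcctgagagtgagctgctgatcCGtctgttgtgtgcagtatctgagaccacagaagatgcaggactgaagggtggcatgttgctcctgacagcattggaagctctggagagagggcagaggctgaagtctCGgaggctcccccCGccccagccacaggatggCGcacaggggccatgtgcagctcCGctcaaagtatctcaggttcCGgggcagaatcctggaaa
SLC2A10: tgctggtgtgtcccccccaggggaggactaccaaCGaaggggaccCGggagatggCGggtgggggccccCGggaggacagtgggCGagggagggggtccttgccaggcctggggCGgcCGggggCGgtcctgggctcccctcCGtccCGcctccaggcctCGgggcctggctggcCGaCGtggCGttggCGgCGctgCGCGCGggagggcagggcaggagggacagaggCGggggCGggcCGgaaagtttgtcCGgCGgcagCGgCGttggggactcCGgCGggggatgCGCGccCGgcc
SLC1A7: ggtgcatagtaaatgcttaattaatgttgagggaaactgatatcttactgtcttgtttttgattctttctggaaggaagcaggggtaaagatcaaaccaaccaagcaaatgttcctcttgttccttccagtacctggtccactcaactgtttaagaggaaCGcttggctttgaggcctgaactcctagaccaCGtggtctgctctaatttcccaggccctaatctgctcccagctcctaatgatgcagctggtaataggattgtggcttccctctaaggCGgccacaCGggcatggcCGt
SLC16A9: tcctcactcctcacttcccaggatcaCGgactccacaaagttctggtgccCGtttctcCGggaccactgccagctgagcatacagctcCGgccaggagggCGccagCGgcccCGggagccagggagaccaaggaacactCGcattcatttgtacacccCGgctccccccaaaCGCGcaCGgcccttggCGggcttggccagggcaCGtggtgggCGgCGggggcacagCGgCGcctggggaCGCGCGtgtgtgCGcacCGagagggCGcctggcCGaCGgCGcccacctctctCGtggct

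The SLC2A14 and SLC2A10 windows held 31 CG each and the SLC16A9 window 28, while the SLC47A2 window held 8 and the SLC1A7 window 5. The letters CG, which read the same on both strands, occurred in 99.4% of the 9477 windows of tested genes that the table holds, at a median of 26 per window. Fewer CG than in the SLC2A14 and SLC2A10 windows were found in 65.4% of these windows, and fewer than in the SLC1A7 window in 6.99%. For 145 members with a window the median was 26. It was also 26 for the 45 members higher after treatment in HCC827-Del, for the 33 lower and for the 67 past the threshold in neither direction. In HCC827-Del-TM the medians were 27 for 36 higher members, 28 for 28 lower members and 26 for the other 81. The medians thus lay between 26 and 28 in all of these groups.

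The arrays of 1 group resembled each other closely, with correlations over tested genes of 0.9951 to 0.9961 within groups and 0.9309 to 0.9724 between groups, and median signals of 95.4 to 104.5 per array. Per array, 137 to 147 members were detected in treated and 136 to 142 in DMSO HCC827-Del-TM cells, and 161 to 167 in treated and 143 to 147 in DMSO HCC827-Del cells. Probes of all kinds were also detected most often in treated HCC827-Del cells, at 18617 to 19671 detected on treated HCC827-Del arrays and 17270 to 18055 on DMSO HCC827-Del arrays, and the part of this in the results was not tested. Of 9 epithelial and lung marker genes, 8 were detected on all 3 treated arrays of each line and 9 on all 3 DMSO arrays of each line, the exception being SFTPB. Their summed signal was 28480 to 29770 in treated and 25690 to 26010 in DMSO HCC827-Del-TM cells, and 21670 to 23220 in treated and 27400 to 29610 in DMSO HCC827-Del cells. Of 15 markers of blood, endothelial, stromal, muscle and neural cells, 14 had a probe. On all 3 arrays of a group, 4 were detected in treated and 3 in DMSO HCC827-Del-TM cells, and 8 in treated and 3 in DMSO HCC827-Del cells. Their summed signal was 2568 to 2753 in treated and 1981 to 2101 in DMSO HCC827-Del-TM cells, and 2308 to 2497 in treated and 1727 to 1837 in DMSO HCC827-Del cells. CD14, a monocyte marker detected on all arrays, rose by 1.05 in HCC827-Del-TM (adjusted p = 1.59e-06) and by 1.57 in HCC827-Del (adjusted p = 1.89e-08). CD3D, of T cells, rose by 1.58 in HCC827-Del-TM (adjusted p = 1.72e-07), where 1 of 3 DMSO arrays was detected. In HCC827-Del, CD3D was at least 5.78-fold, LUM at least 2.75-fold, VWF at least 2.74-fold and DES at least 1.73-fold higher in treated cells, each detected on 3 treated and 0 DMSO arrays. LUM, VWF and DES were detected on 0 arrays of HCC827-Del-TM, and PTPRC, CDH5, DCN, GFAP and RBFOX3 on 0 arrays in all. LUM, VWF and DES thus entered the test on the strength of 3 bright arrays alone, which favours a rise. COL1A1, detected on all 12 arrays, fell by 0.43 in HCC827-Del (adjusted p = 0.00615), with -0.13 in HCC827-Del-TM (adjusted p = 0.4). CD68, also detected on all 12, had 0.18 in HCC827-Del (adjusted p = 0.0556) and rose by 0.29 in HCC827-Del-TM (adjusted p = 0.0054). Of the epithelial and lung markers, SFTPB was at least 8.16-fold lower in treated HCC827-Del-TM cells and at least 3.12-fold lower in treated HCC827-Del cells. In HCC827-Del, NKX2-1 fell by 1.43 (adjusted p = 1.15e-08) and KRT7 by 1.30 (adjusted p = 1.79e-09). KRT8, KRT18, KRT19 and NAPSA also fell there, CDH1 rose by 0.28, and EPCAM did not pass the threshold. The markers were mixed in HCC827-Del-TM, where CDH1 rose by 0.45, KRT7 by 0.36 and KRT19 by 0.48. KRT8 fell there by 0.33 and NAPSA by 0.23, and NKX2-1, KRT18 and EPCAM did not pass the threshold. Since each array holds RNA of a whole culture, fewer cells of a type and less RNA per cell cannot be told apart, and the part of other cell types in the results was not tested.

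Treatment changed the RNA level of many carriers in both lines. The largest increase was that of SLC2A3, of the glucose transporter family, and the largest decrease that of SLC16A9, of the monocarboxylate transporter family. Other genes of these families went the other way, among them SLC2A8, lower in both lines, and SLC16A4, higher in HCC827-Del-TM. In HCC827-Del-TM, 76 of 172 members (44.2%) passed the threshold, against 45.9% of all genes tested. Of all 172 members, 44 were higher after treatment, against 21.7% of all genes, and 32 were lower, against 24.2% of all genes. The median log2 fold change was 0.05 over the members and -0.01 over all genes. In HCC827-Del, 97 members (56.4%) passed the threshold, against 51.3% of all genes. There, 60 of the 172 members were higher, against 24.8% of all genes, and 37 of 172 were lower, against 26.5% of all genes. The median in this line was 0.08 over the members and -0.03 over all genes. With both directions counted together, carriers were thus called about as often as other genes in both lines. Fold changes are treated over DMSO throughout, on the log2 scale of background-corrected, quantile-normalized intensity, and the threshold is an adjusted p under 0.05 from limma.

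The split between directions depended on the scaling of the arrays. In HCC827-Del, 61.9% of the called members were higher with quantile normalization, against 75.6% (65 higher and 21 lower) with median scaling. In HCC827-Del-TM the shares were 57.9% and 53.1%. Among all called genes, 48.4% were higher in HCC827-Del with quantile normalization and 61.2% with median scaling. In HCC827-Del-TM these shares of all called genes were 47.3% and 43.6%. In HCC827-Del, 8 of 172 members rose and 6 of 172 fell by a log2 fold change of at least 1 past the threshold. Of all genes, 4.73% rose and 1.76% fell by as much. In HCC827-Del-TM, 8 of 172 members rose and 2 of 172 fell by as much, against 2.99% and 2.02% of all genes. Among the 115 members detected on all 12 arrays, 56 passed the threshold in HCC827-Del-TM (48.7%, against 49% of 9197 such genes) and 64 in HCC827-Del (55.7%, against 52.5%). Of 32 SLC25 mitochondrial carriers, 20 passed in HCC827-Del-TM and 16 in HCC827-Del, and of 22 ABC transporters 13 passed in each line.

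The plot of calls by class gives the counts in each substrate class, to be read against the 45.9% of all genes called in HCC827-Del-TM and the 51.3% called in HCC827-Del. Each family was assigned to the class most of its members are known for, so a few members carry another substrate. Among sugar transporters, 7 of 22 were higher and 5 lower in HCC827-Del-TM, and 8 were higher and 5 lower in HCC827-Del. For monocarboxylates and other organic acids, 2 of 10 were higher and 6 lower in HCC827-Del-TM, and 1 was higher and 5 lower in HCC827-Del. Of 25 metal transporters, 4 were higher and 2 lower in HCC827-Del-TM, and 11 were higher and 4 lower in HCC827-Del. Of 28 amino acid and peptide transporters, 5 were higher and 7 lower in HCC827-Del-TM, and 10 were higher and 3 lower in HCC827-Del. The share called was 54.5% in HCC827-Del-TM and 59.1% in HCC827-Del for sugars, and 80% in HCC827-Del-TM and 60% in HCC827-Del for organic acids. It was 24% in HCC827-Del-TM and 60% in HCC827-Del for metals, and 42.9% in HCC827-Del-TM and 46.4% in HCC827-Del for amino acids and peptides, the last near the share of all genes in both lines. No test was made of a class, of a family or of a difference between them. Counts by direction, here and for each family below, are to be read against the shares of all genes. These were 21.7% higher and 24.2% lower in HCC827-Del-TM, and 24.8% higher and 26.5% lower in HCC827-Del.

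**Figure D1:**
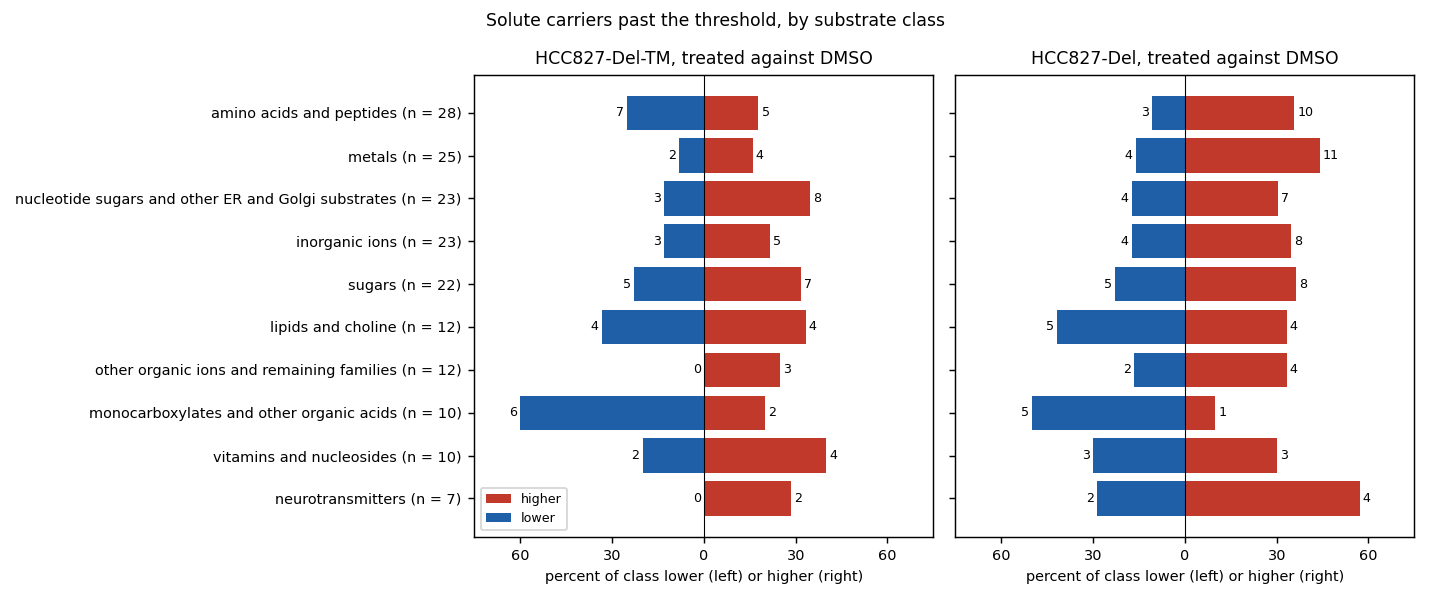
Share of measured solute carriers past the threshold in each substrate class (percent, horizontal axis), higher to the right in red and lower to the left in blue, in 1 panel per line. In organic acid transporters, 6 of 10 were lower in HCC827-Del-TM and 5 of 10 in HCC827-Del, and 4 of 25 metal transporters were higher in HCC827-Del-TM and 11 in HCC827-Del.

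Of the sugar transporters, SLC2A3, the high-affinity glucose transporter GLUT3, showed the largest increase of any member in both lines. It read 11.61, 11.58 and 11.54 in treated HCC827-Del-TM cells, against 9.23, 9.28 and 9.31 in DMSO cells, as log2 intensity. In HCC827-Del it read 11.82, 11.82 and 11.75 in treated cells, against 8.59, 8.72 and 8.68 in DMSO cells. All treated arrays lay above all DMSO arrays in both lines. The log2 fold change was 2.30 (SE 0.0665, 4.93-fold, adjusted p = 1.5e-11) in HCC827-Del-TM and 3.14 (SE 0.0665, 8.79-fold, adjusted p = 2.49e-13) in HCC827-Del. The increase was smaller in HCC827-Del-TM, by -0.83 (adjusted p = 1.1e-05), where the DMSO level was 0.61 higher than in HCC827-Del (adjusted p = 7.33e-06). SLC2A14, a gene nearly identical to SLC2A3, was detected on 3 of 3 treated and 0 of 3 DMSO arrays in each line. Its level in treated cells was at least 1.62-fold higher in HCC827-Del-TM (adjusted p = 6.22e-06) and at least 1.55-fold higher in HCC827-Del (adjusted p = 3.68e-06). Because the transcripts are so alike, the SLC2A14 signal is uncertain and cannot be told apart from that of SLC2A3.

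SLC2A1, the widespread glucose transporter GLUT1, also rose in both lines. Treated HCC827-Del-TM cells gave 10.66, 10.77 and 10.79, against 10.41, 10.44 and 10.38 in DMSO cells. Treated HCC827-Del cells gave 10.59, 10.56 and 10.63, against 9.78, 9.69 and 9.82 in DMSO cells. The groups did not overlap in either line. The log2 fold change was 0.33 (SE 0.0683, adjusted p = 0.00134) in HCC827-Del-TM and 0.83 (SE 0.0683, adjusted p = 2.65e-07) in HCC827-Del.

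SLC2A10, SLC2A9 and SLC2A12 passed the threshold in 1 line, and SLC2A6 in opposite directions. SLC2A10 (GLUT10), a transporter of glucose and dehydroascorbate found mainly in internal membranes, read 6.82, 6.88 and 7.26 in treated HCC827-Del cells and 5.35, 5.17 and 5.23 in DMSO cells. It rose by 1.74 (SE 0.133, adjusted p = 1.17e-07) and was detected on 0 arrays of HCC827-Del-TM. A second probe for SLC2A10 gave 0.79 in HCC827-Del. SLC2A6 (GLUT6), a lysosomal hexose transporter, read 6.77, 6.59 and 6.59 in treated HCC827-Del cells, against 5.75, 5.99 and 6.19 in DMSO cells, and rose by 0.68 (SE 0.106, adjusted p = 0.000119). In HCC827-Del-TM it was detected on 0 treated and 3 DMSO arrays, so it was at least 1.33-fold lower in treated cells (adjusted p = 0.000315). The treated HCC827-Del arrays were thus the highest of the 4 groups and the treated HCC827-Del-TM arrays the lowest.

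SLC2A9 (GLUT9), which carries urate, was detected in HCC827-Del-TM and on 0 arrays of HCC827-Del. It read 6.11, 6.23 and 6.18 in treated HCC827-Del-TM cells, on 3 of 3 arrays, against 5.04, 4.83 and 4.97 in DMSO cells, where 1 of 3 was detected. The groups did not overlap, and the log2 fold change was 1.23 (SE 0.0744, adjusted p = 1.93e-08). SLC2A12 (GLUT12), a glucose transporter, rose by 0.81 in HCC827-Del-TM (adjusted p = 8.62e-06), while its groups overlapped in HCC827-Del, at 0.06 (adjusted p = 0.648). SLC2A8 (GLUT8), an intracellular hexose transporter, went the other way, with 6.69, 6.69 and 6.71 in treated and 7.59, 7.73 and 7.68 in DMSO HCC827-Del-TM cells. In HCC827-Del it read 7.16, 7.17 and 7.22 in treated cells, against 7.73, 7.79 and 7.89 in DMSO cells. It fell by 0.97 in HCC827-Del-TM (adjusted p = 9.02e-08) and by 0.62 in HCC827-Del (adjusted p = 4.99e-06), with no overlap in either line. SLC2A11 (GLUT11) passed the threshold in neither line, at -0.25 in HCC827-Del-TM (adjusted p = 0.209) and -0.28 in HCC827-Del (adjusted p = 0.16). Of the 10 SLC2 genes measured, 5 were higher and 2 lower in HCC827-Del-TM, and 6 were higher and 1 lower in HCC827-Del. The shares of all genes were 21.7% higher and 24.2% lower in HCC827-Del-TM, and 24.8% and 26.5% in HCC827-Del.

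**Figure D2:**
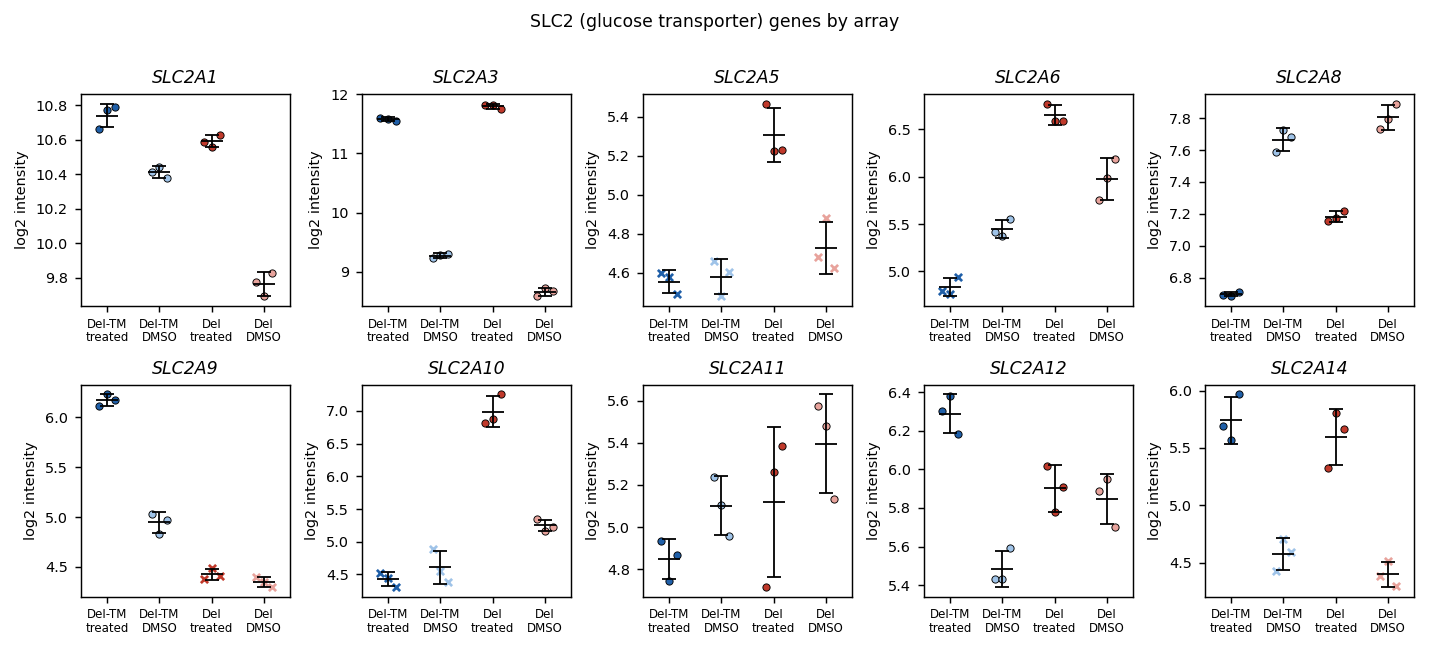
Log2 intensity (vertical axis) of the 10 measured SLC2 genes by group, with 1 point per array and bars for the mean and SD of 3 arrays, and with crosses where no array of the group was detected. SLC2A3 lies at 11.54 to 11.82 in the treated groups and at 8.59 to 9.31 in the DMSO groups, and SLC2A10 stands above background only in HCC827-Del.

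In the sodium-coupled SLC5 family, SLC5A6, which carries biotin and pantothenate rather than sugar, read 6.16, 6.15 and 6.32 in treated HCC827-Del-TM cells, against 7.49, 7.62 and 7.58 in DMSO cells. It read 7.57, 7.57 and 7.53 in treated HCC827-Del cells, against 7.97, 7.71 and 7.87 in DMSO cells. All treated arrays lay below the DMSO arrays of their line, with the wider gap in HCC827-Del-TM. SLC5A6 fell by 1.35 in HCC827-Del-TM (SE 0.0817, adjusted p = 1.89e-08) and by 0.30 in HCC827-Del (adjusted p = 0.00796). SLC5A8, a monocarboxylate transporter known to be silenced by methylation in several tumours, had values of 0.07 in HCC827-Del-TM (adjusted p = 0.691) and -0.28 in HCC827-Del (adjusted p = 0.0972), with overlapping groups. Of the sugar-phosphate exchangers, SLC37A2 was detected on 3 treated and 0 DMSO arrays in each line, at least 1.27-fold higher in HCC827-Del-TM (adjusted p = 1.19e-05) and at least 1.08-fold higher in HCC827-Del (adjusted p = 0.000159). SLC60A1 (MFSD4A), a major facilitator protein, was detected on 0 treated and 3 DMSO arrays of HCC827-Del and was at least 1.36-fold lower in treated cells (adjusted p = 0.000184). In HCC827-Del-TM it also passed the threshold, with a fall of 0.78.

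Among the monocarboxylate transporters, SLC16A9 (MCT9), a carnitine transporter, showed the largest decrease of any member. It read 5.48, 5.84 and 5.58 in treated HCC827-Del cells, against 8.13, 8.04 and 8.02 in DMSO cells. In HCC827-Del-TM it was detected on 0 of 3 treated arrays, against 6.46, 6.40 and 6.45 in DMSO cells. No treated array overlapped a DMSO array. SLC16A9 fell by 2.43 in HCC827-Del (SE 0.0869, adjusted p = 3.9e-11), a level 5.4-fold lower, and was at least 2.64-fold lower in treated HCC827-Del-TM cells (adjusted p = 7.27e-10). The DMSO level was itself lower in HCC827-Del-TM than in HCC827-Del, by a log2 fold change of -1.63 (adjusted p = 4.82e-09).

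SLC16A7 (MCT2), a high-affinity transporter of lactate and pyruvate, read 6.71, 6.61 and 6.52 in treated HCC827-Del-TM cells, against 7.01, 7.06 and 6.86 in DMSO cells. Treated HCC827-Del cells gave 5.24, 5.38 and 5.30, against 6.49, 6.53 and 6.47 in DMSO cells. Both lines separated without overlap, with the larger gap in HCC827-Del. SLC16A7 fell by 0.36 in HCC827-Del-TM (SE 0.0782, adjusted p = 0.00172) and by 1.19 in HCC827-Del (SE 0.0782, adjusted p = 2.43e-08). SLC16A14, an orphan of the family, fell by 1.11 in HCC827-Del (adjusted p = 7.09e-07) and was detected on 0 treated arrays of HCC827-Del-TM, at least 1.45-fold lower than in DMSO cells (adjusted p = 8.29e-06). SLC16A5 (MCT6), known for transport of some drugs, fell by 0.38 in HCC827-Del-TM (adjusted p = 0.00121) and by 0.82 in HCC827-Del (adjusted p = 1.19e-06).

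Against this direction, SLC16A4 read 9.39, 9.50 and 9.32 in treated HCC827-Del-TM cells, above the 8.26, 8.40 and 8.00 of DMSO cells. In HCC827-Del it read 7.89, 8.42 and 8.09 in treated cells and 8.20, 8.26 and 8.34 in DMSO cells, which overlap. SLC16A4 rose by 1.18 in HCC827-Del-TM (SE 0.127, adjusted p = 4.63e-06), and the treatment effect was 1.31 higher there than in HCC827-Del (adjusted p = 5.83e-05). SLC16A10 (TAT1), which carries aromatic amino acids, was detected mainly in HCC827-Del-TM, with 5.79, 5.79 and 5.71 in treated cells and 6.33, 6.45 and 6.63 in DMSO cells. It fell by 0.70 there (SE 0.0996, adjusted p = 5.74e-05). SLC16A12, a creatine transporter and among the 10 members with the highest mean signal, passed the threshold in neither line, with values of -0.07 in HCC827-Del-TM (adjusted p = 0.537) and 0.16 in HCC827-Del (adjusted p = 0.15). Of the 7 SLC16 genes measured, 1 was higher and 5 lower in HCC827-Del-TM, and 0 were higher and 4 lower in HCC827-Del. Among all genes, 24.2% were lower in HCC827-Del-TM and 26.5% in HCC827-Del. SLC16A1 and SLC16A3, the main lactate transporters, were not analysed here. Their accessory glycoprotein BSG rose by 0.33 in HCC827-Del-TM (adjusted p = 0.00237) and 0.46 in HCC827-Del (adjusted p = 0.000151).

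**Figure D3:**
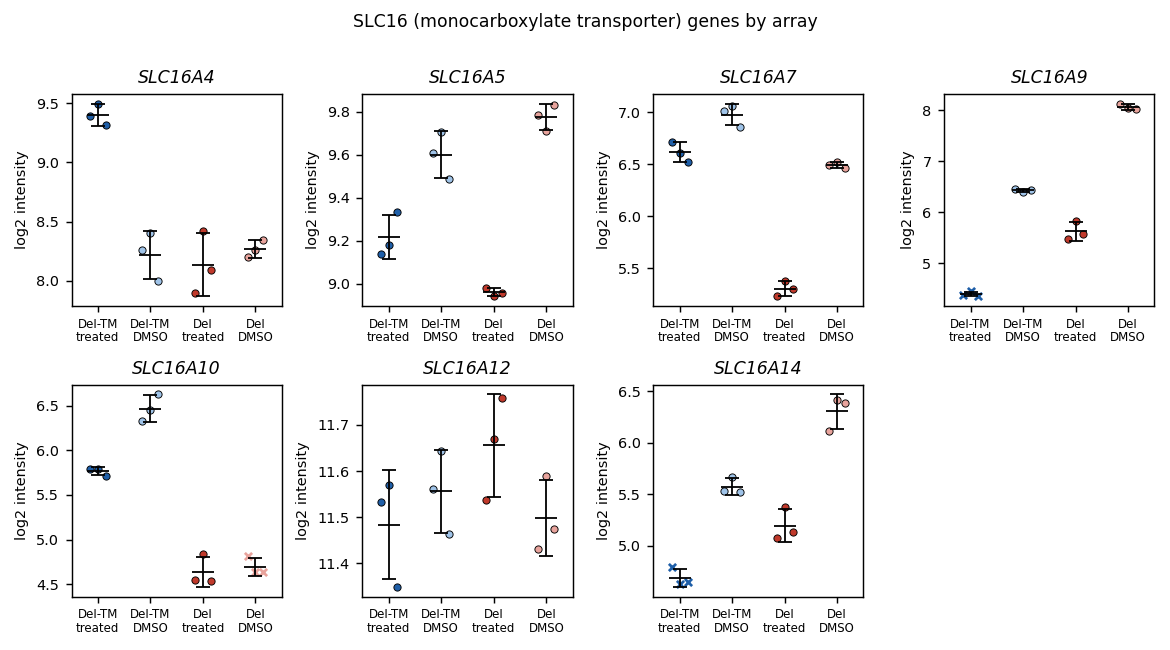
Log2 intensity (vertical axis) of the 7 measured SLC16 genes by group, with 1 point per array and bars for the mean and SD of 3 arrays, and with crosses where no array of the group was detected. SLC16A9 lies at 5.48 to 5.84 in treated and 8.02 to 8.13 in DMSO HCC827-Del cells, and SLC16A4 is highest in treated HCC827-Del-TM cells.

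In the amino acid and peptide class, the genes of highest fold were of low or moderate signal, while the more abundant exchangers showed smaller values. SLC1A7 (EAAT5), a glutamate transporter best known from the retina, read 5.87, 5.94 and 5.86 in treated HCC827-Del-TM cells, against 5.39, 5.10 and 5.67 in DMSO cells. It read 6.84, 6.72 and 6.93 in treated HCC827-Del cells, against 4.57, 4.84 and 5.20 in DMSO cells, where 1 of 3 arrays was detected. Treated arrays were higher in both lines without overlap. SLC1A7 rose by 0.50 in HCC827-Del-TM (SE 0.151, adjusted p = 0.0144) and by 1.96 in HCC827-Del (SE 0.151, adjusted p = 1.35e-07). SLC15A3, a lysosomal carrier of histidine and peptides, read 5.93, 5.97 and 5.78 in treated HCC827-Del cells and 4.80, 4.72 and 5.06 in DMSO cells, where 1 array was detected, and it was detected on 0 arrays of HCC827-Del-TM. Its log2 fold change in HCC827-Del was 1.03 (adjusted p = 4.71e-07). SLC3A1, the heavy chain of a cystine exchanger, was detected only in treated HCC827-Del cells and was at least 1.71-fold higher there than in DMSO cells (adjusted p = 1.31e-06).

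SLC7A5 (LAT1), the light chain of the large neutral amino acid exchanger, was among the members with the highest mean signal. It read 11.09, 11.12 and 11.16 in treated HCC827-Del-TM cells, against 11.31, 11.55 and 11.47 in DMSO cells. Treated HCC827-Del cells gave 12.11, 12.04 and 11.94, against 11.74, 11.73 and 11.72 in DMSO cells. The lines moved in opposite directions without overlap, by -0.32 (SE 0.0767, adjusted p = 0.00338) in HCC827-Del-TM and by 0.30 (SE 0.0767, adjusted p = 0.00532) in HCC827-Del. The call in HCC827-Del was lost with median scaling. Its heavy chain SLC3A2 had a value of 0.01 in HCC827-Del-TM (adjusted p = 0.931) and rose by 0.29 in HCC827-Del (adjusted p = 0.00574). SLC1A5 (ASCT2), a glutamine transporter, rose by 0.25 in HCC827-Del-TM (adjusted p = 0.0253) and fell by 0.34 in HCC827-Del (adjusted p = 0.00385), and both calls were lost with median scaling, that in HCC827-Del-TM also without DMSO replicate 2 or treated replicate 2 or 3. SLC1A5 and SLC7A5 were 2 of 7 members past the threshold in opposite directions in the lines.

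In the SLC7 family, 0 of 6 measured genes were higher and 4 lower in HCC827-Del-TM, and 2 were higher and 0 lower in HCC827-Del. SLC7A6, a light chain for cationic and neutral amino acids, read 5.48, 5.41 and 5.69 in treated HCC827-Del-TM cells, against 6.65, 6.26 and 6.24 in DMSO cells, with no overlap, and fell by 0.86 (SE 0.118, adjusted p = 4.32e-05). SLC7A2, a cationic amino acid transporter, was detected on 0 treated and 3 DMSO arrays of HCC827-Del-TM, and was at least 1.64-fold lower in treated cells (adjusted p = 6.26e-05). SLC7A11, the cystine and glutamate exchanger, was detected on 1 array and was not measured.

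Phosphate and potassium-chloride transporters led the inorganic ion class. SLC20A1 (PiT1), a sodium-phosphate symporter, read 10.13, 10.17 and 10.15 in treated HCC827-Del-TM cells, against 9.97, 10.00 and 9.91 in DMSO cells. Treated HCC827-Del cells gave 11.11, 11.12 and 11.14, against 10.20, 10.12 and 10.06 in DMSO cells. Treated arrays were higher in both lines without overlap, with the smaller gap in HCC827-Del-TM. SLC20A1 rose by 0.19 (SE 0.0653, adjusted p = 0.0305) in HCC827-Del-TM and by 1.00 (SE 0.0653, 2-fold, adjusted p = 2.34e-08) in HCC827-Del. SLC12A4 (KCC1), a potassium-chloride cotransporter of cell volume control, read 7.19, 7.19 and 7.20 in treated HCC827-Del-TM cells, against 5.96, 5.92 and 5.80 in DMSO cells. In HCC827-Del it read 6.28, 6.39 and 6.24 in treated cells, against 5.37, 5.57 and 5.71 in DMSO cells. SLC12A4 rose by 1.30 in HCC827-Del-TM (SE 0.0882, adjusted p = 5.59e-08) and by 0.75 in HCC827-Del (SE 0.0882, adjusted p = 8.54e-06), with no overlap.

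SLC9A2 (NHE2), a sodium-proton exchanger, and SLC8A2 (NCX2), a sodium-calcium exchanger, were detected on 3 treated and 0 DMSO arrays of HCC827-Del. They were at least 1.39-fold (adjusted p = 2.52e-05) and at least 1.41-fold higher (adjusted p = 6.38e-07) in treated cells. In HCC827-Del-TM, SLC8A2 also passed the threshold upward, at values near the detection limit, and SLC9A2 did not pass it. The SLC4 bicarbonate transporters had 0 of 7 measured genes higher in either line, with 1 lower in HCC827-Del-TM and 3 in HCC827-Del. SLC4A7 (NBCn1), a sodium-bicarbonate symporter, fell by 0.74 in HCC827-Del-TM (adjusted p = 3.73e-05) and by 0.37 in HCC827-Del (adjusted p = 0.00744). SLC4A4 (NBCe1), its electrogenic relative, read 5.19, 5.01 and 5.29 in treated HCC827-Del cells and 5.44, 5.67 and 5.98 in DMSO cells, fell by 0.53 (adjusted p = 0.00495), and was detected on 0 arrays of HCC827-Del-TM. SLC12A2 (NKCC1), the sodium-potassium-chloride cotransporter, passed the threshold in neither line, at -0.21 in HCC827-Del-TM (adjusted p = 0.129) and 0.10 in HCC827-Del (adjusted p = 0.488). SLC34A2, the phosphate transporter of alveolar type II cells, was detected on 1 array and was not measured.

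The largest family of the metal class was SLC39, zinc importers, with 10 of 25 genes, of which 2 were higher and 1 lower in HCC827-Del-TM, and 6 were higher and 1 lower in HCC827-Del. SLC39A8 (ZIP8), an importer of zinc and manganese, rose by 0.56 in HCC827-Del-TM (SE 0.101, adjusted p = 0.000479) and by 0.68 in HCC827-Del (SE 0.101, adjusted p = 7.95e-05). SLC39A11, an internal zinc transporter, read 10.73, 10.92 and 10.77 in treated HCC827-Del-TM cells, against 9.69, 9.68 and 9.84 in DMSO cells, and rose by 1.07 (SE 0.0811, adjusted p = 1.63e-07). In HCC827-Del it rose by 0.31 (adjusted p = 0.00531). SLC39A3 (ZIP3), a zinc importer, moved in opposite directions. It read 7.79, 7.94 and 7.95 in treated HCC827-Del-TM cells, against 8.69, 8.86 and 8.74 in DMSO cells, and 9.30, 9.17 and 9.26 in treated HCC827-Del cells, against 8.97, 8.84 and 8.96 in DMSO cells. It fell by 0.87 in HCC827-Del-TM (SE 0.0776, adjusted p = 8.06e-07) and rose by 0.32 in HCC827-Del (SE 0.0776, adjusted p = 0.00354), with no overlap in either line. SLC30A1, the zinc exporter of the cell surface, rose by 0.31 in HCC827-Del-TM (adjusted p = 0.00255; lost with median scaling), and its value in HCC827-Del was 0.07 (adjusted p = 0.397). SLC39A10, a zinc importer, rose by 0.33 in HCC827-Del (adjusted p = 0.0115), a call that was lost without DMSO replicate 3 or treated replicate 3. SLC11A1 (NRAMP1), an iron and manganese transporter of phagocytes, was detected only in treated HCC827-Del cells and was at least 1.3-fold higher there (adjusted p = 2.06e-05).

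Of the lipid and choline class, SLC27A2, an enzyme-transporter that activates very long chain fatty acids, read 6.58, 7.03 and 6.90 in treated HCC827-Del-TM cells, against 7.50, 7.68 and 7.59 in DMSO cells. Treated HCC827-Del cells gave 6.65, 6.72 and 6.56, against 7.65, 7.77 and 7.65 in DMSO cells. It was lower in treated cells of both lines without overlap, and fell by 0.75 in HCC827-Del-TM (SE 0.104, adjusted p = 4.59e-05) and by 1.04 in HCC827-Del (SE 0.104, adjusted p = 1.7e-06). Its relative SLC27A1 (FATP1) rose by 0.96 in HCC827-Del-TM (SE 0.083, adjusted p = 6.23e-07) and by 0.24 in HCC827-Del (SE 0.083, adjusted p = 0.026). SLC44A1 (CTL1), a choline transporter and the member with the highest mean signal, read 11.05, 10.98 and 11.07 in treated HCC827-Del cells, against 11.53, 11.63 and 11.67 in DMSO cells. It had a value of 0.14 in HCC827-Del-TM (adjusted p = 0.147) and fell by 0.58 in HCC827-Del (SE 0.0751, adjusted p = 2.29e-05). The choline-transporter-like genes SLC44A2 and SLC44A3 were higher after treatment. SLC44A2 rose by 0.71 in HCC827-Del (adjusted p = 2.68e-06), and SLC44A3 rose by 0.68 in HCC827-Del-TM (adjusted p = 1.26e-05). Both also passed the threshold in the other line, SLC44A2 at 0.33 in HCC827-Del-TM and SLC44A3 at 0.57 in HCC827-Del. SLC33A2 (MFSD3) read 8.04, 8.09 and 8.06 in treated HCC827-Del-TM cells, against 8.65, 8.70 and 8.73 in DMSO cells, and fell by 0.63 without overlap (SE 0.0667, adjusted p = 3.89e-06). It also passed the threshold in HCC827-Del, with a fall of 0.48.

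SLC52A3, a riboflavin transporter, was detected on 3 treated and 0 DMSO arrays in each line. It read 5.96, 6.21 and 6.21 in treated HCC827-Del-TM cells and 6.23, 5.88 and 5.86 in treated HCC827-Del cells. The treated level was at least 2.11-fold higher than in DMSO cells in HCC827-Del-TM (adjusted p = 9.25e-07) and at least 2.03-fold higher in HCC827-Del (adjusted p = 1.85e-07), the largest bounds upward among members in each line. SLC28A3 (CNT3), a concentrative nucleoside transporter that also carries nucleoside drugs, read 5.29, 5.14 and 5.35 in treated HCC827-Del cells, against 5.79, 5.83 and 6.23 in DMSO cells. It fell by 0.69 without overlap (SE 0.11, adjusted p = 0.000142), and its value in HCC827-Del-TM was 0.07 (adjusted p = 0.631). SLC46A3, a lysosomal transporter, was detected in HCC827-Del-TM only after treatment, at least 1.18-fold higher (adjusted p = 0.00413). In HCC827-Del it also passed the threshold, with a rise of 0.63. SLC19A1, the reduced folate carrier, fell by 0.47 in HCC827-Del (adjusted p = 0.0269), a call lost with median scaling and cyclic loess and without DMSO replicate 2 or 3 or treated replicate 2.

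In the SLC35 family of nucleotide sugar and related carriers of the Golgi and endoplasmic reticulum, 8 of 23 were higher and 3 lower in HCC827-Del-TM, and 7 were higher and 4 lower in HCC827-Del. SLC35D2, a carrier of UDP-N-acetylglucosamine and other nucleotide sugars, read 8.73, 8.64 and 8.54 in treated HCC827-Del-TM cells, against 8.58, 8.55 and 8.27 in DMSO cells, with overlap. Treated HCC827-Del cells gave 8.10, 7.98 and 8.19, against 9.76, 9.51 and 9.63 in DMSO cells, without overlap. SLC35D2 had a value of 0.17 in HCC827-Del-TM (adjusted p = 0.181) and fell by 1.54 in HCC827-Del (SE 0.0991, adjusted p = 1.96e-08). SLC35G2, an orphan of the family, read 7.12, 7.25 and 7.20 in treated HCC827-Del cells, against 5.93, 6.07 and 5.87 in DMSO cells, and rose by 1.23 (SE 0.0793, adjusted p = 1.98e-08). In HCC827-Del-TM it rose by 0.29 (adjusted p = 0.00821). SLC35F6 had a value of 0.09 in HCC827-Del-TM (adjusted p = 0.601) and rose by 0.81 in HCC827-Del (SE 0.133, adjusted p = 0.000186).

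Of the neurotransmitter class, SLC6A8, the creatine transporter, rose in both lines. It read 6.33, 6.32 and 6.20 in treated HCC827-Del-TM cells, against 5.63, 5.74 and 5.49 in DMSO cells, and 5.72, 5.67 and 5.69 in treated HCC827-Del cells, against 5.14, 4.92 and 5.11 in DMSO cells. The log2 fold change was 0.66 (SE 0.0838, adjusted p = 2.03e-05) in HCC827-Del-TM and 0.64 (SE 0.0838, adjusted p = 2.42e-05) in HCC827-Del, and the difference of effects was 0.03 (SE 0.118, adjusted p = 0.881). SLC6A9, a glycine transporter, fell by 0.53 in HCC827-Del (adjusted p = 2.98e-05), and SLC6A16, an orphan, rose by 0.46 in HCC827-Del-TM (adjusted p = 0.00543) and fell by 0.32 in HCC827-Del (adjusted p = 0.038). Among remaining families, SLC47A2 (MATE2), a proton-coupled exporter of organic cations, was detected on 3 treated and 0 DMSO arrays in each line. Its treated level was at least 1.47-fold higher in HCC827-Del-TM (adjusted p = 5.71e-06) and at least 1.35-fold higher in HCC827-Del (adjusted p = 4.88e-06). SLC22A17, a receptor for lipocalin, rose by 0.60 in HCC827-Del-TM (adjusted p = 0.00167) and by 0.77 in HCC827-Del (adjusted p = 0.000196).

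Some members crossed the detection limit with treatment. In HCC827-Del-TM, 5 members were detected on 3 treated and 0 DMSO arrays and 4 the other way, and in HCC827-Del these numbers were 15 and 1. Because a member could pass the detection filter through treated HCC827-Del arrays alone, these counts describe the members and are no evidence of a general increase. SLC2A14, SLC37A2, SLC47A2 and SLC52A3 crossed in both lines, though the SLC2A14 signal cannot be told apart from that of SLC2A3. Another 8 members were detected only in treated HCC827-Del cells. For 11 of the 15 members that crossed in HCC827-Del a promoter window was in the table, with a median of 16 CG and a range of 2 to 41.

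Across the 172 members, the treatment effects of the lines correlated at Pearson's r = 0.573 and Spearman's rho = 0.444, where genes are no independent replicates and all arrays share 1 normalization. Past the threshold in both lines were 27 members higher in both, 15 lower in both and 7 in opposite directions, which were SLC1A5, SLC2A6, SLC35B1, SLC38A12, SLC39A3, SLC6A16 and SLC7A5. In HCC827-Del-TM only, 15 were called higher and 12 lower, in HCC827-Del only, 28 higher and 20 lower, and 48 were called in neither line. A call in 1 line alone does not show that the lines differ, which the test of the difference addresses.

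**Figure D4:**
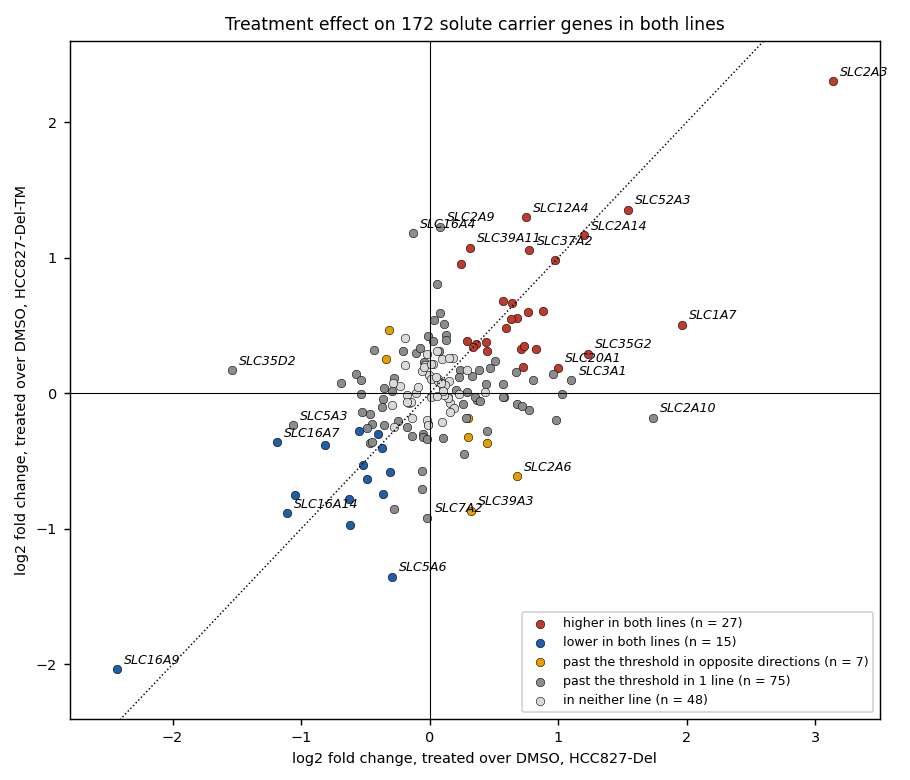
Log2 fold change with treatment of 172 solute carriers in HCC827-Del-TM (vertical axis) and HCC827-Del (horizontal axis), with 1 point per gene, coloured by the calls in the lines. SLC2A3 lies far to the upper right, at 2.30 in HCC827-Del-TM and 3.14 in HCC827-Del, and SLC16A9 to the lower left, where its HCC827-Del-TM value rests on treated arrays that were not above background.

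The test of the difference between the treatment effects, HCC827-Del-TM minus HCC827-Del, passed the threshold for 70 members (40.7%), against 42.6% of all genes. Of all 172 members, 29 were higher, against 20.3% of all genes, and 41 were lower, against 22.3% of all genes. With median scaling, 14 were higher and 44 lower. The share higher among called members was then 24.1%, against 41.4% with quantile normalization. SLC35D2 had the most positive difference among members detected on all arrays, at 1.71 (SE 0.14, adjusted p = 6.53e-07), with a call in HCC827-Del and none in HCC827-Del-TM. SLC39A3 had the most negative among these members, at -1.19 (SE 0.11, adjusted p = 1.93e-06), ahead of SLC5A6 at -1.06 (SE 0.116, adjusted p = 8.38e-06). SLC2A10 and SLC2A6 also passed this test, but with no detected array in treated HCC827-Del-TM cells the size of their difference was not measured. SLC1A7, detected on 1 of 3 DMSO arrays of HCC827-Del, differed by -1.46 (SE 0.214, adjusted p = 0.00011), and SLC20A1 by -0.81 (SE 0.0923, adjusted p = 1.23e-05), each with a smaller increase in HCC827-Del-TM. All 7 members called in opposite directions passed this test, which follows from 2 called effects of opposite sign. It was also passed by 18 of those called in the same direction.

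**Figure D5:**
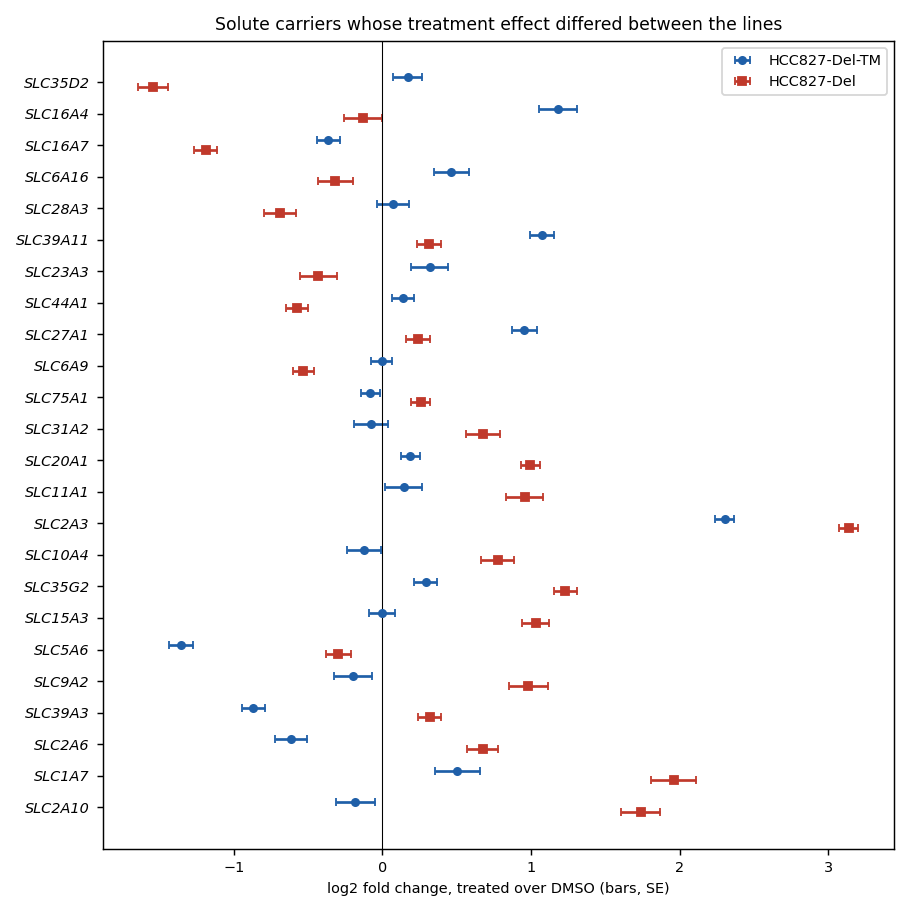
Log2 fold change with treatment (horizontal axis, bars SE) of solute carriers whose treatment effect differed between the lines, with circles for HCC827-Del-TM and squares for HCC827-Del. SLC2A10, SLC2A6, SLC15A3, SLC9A2, SLC11A1 and SLC10A4 had a group with no detected array, so their fitted values are not measured sizes. SLC35D2 lies at 0.17 in HCC827-Del-TM and at -1.54 in HCC827-Del, and SLC39A3 at -0.87 in HCC827-Del-TM and at 0.32 in HCC827-Del.

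Without treatment, 73 members (42.4%) differed between HCC827-Del-TM and HCC827-Del, against 36.5% of all genes. Of all 172 members, 39 were higher in HCC827-Del-TM, against 16.2% of all genes, and 34 were lower, against 20.3% of all genes. Median scaling gave 23 higher and 37 lower. The share higher among called members was then 38.3%, against 53.4% with quantile normalization. SLC16A10 was at least 2.84-fold higher in HCC827-Del-TM, with 6.33, 6.45 and 6.63 there and 0 of 3 arrays detected in HCC827-Del (adjusted p = 8.3e-09). SLC39A8 was higher by 0.87 (SE 0.101, adjusted p = 1.55e-05) and SLC11A2 (DMT1), a divalent iron transporter, by 0.74 (SE 0.0718, adjusted p = 2.37e-06). Lower in HCC827-Del-TM were SLC20A2 (PiT2), the second sodium-phosphate symporter, with 6.99, 7.06 and 7.06 against 8.24, 8.29 and 8.23 in HCC827-Del, and SLC35D2, with 8.58, 8.55 and 8.27 against 9.76, 9.51 and 9.63. Their log2 fold changes were -1.21 (SE 0.0713, adjusted p = 1.24e-08) and -1.17 (SE 0.0991, adjusted p = 6.11e-07). SLC4A4 was at least 1.57-fold lower in HCC827-Del-TM (adjusted p = 7.43e-06), where it was not detected.

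After treatment, 113 members (65.7%) differed between the lines, against 63.1% of all genes. Of all 172 members, 51 were higher in HCC827-Del-TM, against 29.4% of all genes, and 62 were lower, against 33.7% of all genes. With median scaling 27 were higher and 73 lower. The share higher among called members was then 27%, against 45.1% with quantile normalization. The median over all genes was -0.18 with median scaling and -0.02 with quantile normalization. The largest bounds were those of the SLC2 family. SLC2A10 was at least 3.87-fold lower (adjusted p = 1.18e-09) and SLC2A6 at least 3.07-fold lower (adjusted p = 4.02e-09) in treated HCC827-Del-TM cells than in treated HCC827-Del cells, and SLC2A9 at least 2.61-fold higher (adjusted p = 1.57e-10). SLC40A1 (ferroportin), the iron exporter, was detected on 0 arrays of HCC827-Del and was at least 1.73-fold higher in treated HCC827-Del-TM cells (adjusted p = 3.08e-07). SLC16A7 was 1.31 higher on the log2 scale in treated HCC827-Del-TM cells (SE 0.0782, adjusted p = 5.09e-09), and SLC12A8, a cation-chloride family member, lower by a log2 fold change of -1.41 (SE 0.117, adjusted p = 1.53e-07). In all, 2 members were detected on 3 treated HCC827-Del-TM arrays and 0 treated HCC827-Del arrays, and 20 the other way. A member could pass the detection filter through treated HCC827-Del arrays alone, and probes of all kinds were detected most often on those arrays. The share over all genes was not counted, so these 2 numbers are no evidence of a general difference between the lines. These comparisons share arrays with the treatment comparisons above.

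Carriers act with accessory and regulatory proteins, of which 38 were listed and 24 measured. In HCC827-Del-TM, 12 were higher and 3 lower after treatment, where 21.7% of all genes were higher and 24.2% lower. In HCC827-Del 13 were higher and 4 lower, where 24.8% of all genes were higher and 26.5% lower. TXNIP, an arrestin-like protein that drives removal of GLUT1 from the surface, rose by 1.21 in HCC827-Del-TM (adjusted p = 2.8e-08) and by 0.66 in HCC827-Del (adjusted p = 7.85e-06). Its relative ARRDC4 rose by 0.58 in HCC827-Del-TM (adjusted p = 0.000298) and by 0.92 in HCC827-Del (adjusted p = 3.68e-06). FXYD1, a small regulator of the sodium pump detected on 3 treated and 0 DMSO arrays of each line, read 7.26, 7.11 and 6.99 in treated HCC827-Del cells, against 4.78, 4.63 and 4.52 in DMSO cells (adjusted p = 4.54e-11). In HCC827-Del-TM it read 6.10, 6.08 and 6.10 in treated cells, against 4.52, 4.34 and 4.42 in DMSO cells (adjusted p = 5.67e-09). SGK1, a kinase that raises the surface level of several carriers, rose by 0.79 in HCC827-Del-TM (adjusted p = 3.11e-06) and by 0.61 in HCC827-Del (adjusted p = 2.7e-05). NHERF1, a scaffold for SLC9 and SLC34 proteins, fell by 0.50 in HCC827-Del-TM (adjusted p = 0.00042) and rose by 0.55 in HCC827-Del (adjusted p = 0.000152). STK39, the kinase that phosphorylates SLC12 cotransporters, fell by 0.38 in HCC827-Del-TM (adjusted p = 0.0017) and by 0.55 in HCC827-Del (adjusted p = 7.58e-05).

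The largest measured decrease among partners was that of PDZK1, a scaffold for several carriers. It read 4.80, 5.23 and 5.31 in treated HCC827-Del cells, on 2 of 3 arrays, against 7.03, 7.28 and 6.78 in DMSO cells, and fell by 1.91 without overlap (adjusted p = 1.12e-07). PDZK1 was detected on 0 arrays of HCC827-Del-TM, where it counts among the 3 lower genes from background values. Its partner protein PDZK1IP1 rose by 0.89 in HCC827-Del-TM (adjusted p = 2.33e-06) and had a value of 0.16 in HCC827-Del (adjusted p = 0.149). ATP1B1, a beta subunit of the sodium pump, rose by 0.57 in HCC827-Del-TM (adjusted p = 1.63e-05) and by 0.54 in HCC827-Del (adjusted p = 1.98e-05), and ATP1B3 rose by 0.46 in HCC827-Del (adjusted p = 0.000903), with a value of 0.23 in HCC827-Del-TM (adjusted p = 0.0597). Of the pump's FXYD regulators, FXYD5 rose by 0.60 in HCC827-Del-TM (adjusted p = 9.16e-05) and by 0.53 in HCC827-Del (adjusted p = 0.000229). FXYD4 was detected only in treated HCC827-Del cells, at least 1.97-fold higher than in DMSO cells (adjusted p = 6.19e-10), and FXYD2 fell by 0.29 in HCC827-Del (adjusted p = 0.0146).

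Among regulators of SLC12 proteins, CAB39, an activator of STK39, rose by 0.27 in HCC827-Del-TM (adjusted p = 0.0032) and by 0.35 in HCC827-Del (adjusted p = 0.000463). The kinase WNK1 fell by 0.34 in HCC827-Del (adjusted p = 0.00509), and WNK4 rose by 0.32 in HCC827-Del-TM (adjusted p = 0.0227), where 1 of 3 DMSO arrays was detected. CHP1 rose by 0.50 in HCC827-Del-TM (adjusted p = 0.00073). NPTN, a relative of BSG, rose by 0.42 in HCC827-Del-TM (adjusted p = 0.00171). CLTRN, which brings amino acid transporters to the surface, rose by 0.35 in HCC827-Del (adjusted p = 0.00584), and OSTM1, a subunit of a lysosomal chloride exchanger, by 0.49 in HCC827-Del (adjusted p = 0.000503).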

How the data were processed

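The submitters' table holds, per the file headers, a signal intensity per probe and a detection p-value beside it. As the values show, the deposited intensities were neither background-subtracted nor normalized. The authors' own log2 values are quantile-normalized, since their sorted columns are the same on all 12 arrays. The software for these steps was not given in the sources used here. Of 47323 probes, the platform's annotation gave 30113 a single symbol, 8 several and 17202 none.

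Signals were corrected with limma's nec (offset 16, noise from the detection p-values), quantile-normalized and put on the log2 scale, with R 4.3.3, limma 3.58.1 and statmod 1.5.0. The detection filter (p under 0.01 on 3 or more arrays) kept 19833 probes. For each of 11808 genes the brightest kept probe entered the test. Agreement with the authors' log2 values was r = 0.981. All 12 arrays went into 1 limma fit (lmFit and eBayes) with a mean per group and 5 contrasts. P-values are two-sided, adjusted over 11808 genes by Benjamini-Hochberg, at a threshold of 0.05. Median SE was 0.0995 for fold changes and 0.141 for the difference. The number of arrays, 3 per group, limits the precision. Where a group had no detected array, the fold is a bound ("at least"): the brighter group's mean was set against the mean, per array, of the lowest detected signal or the probe's own signal, whichever was higher.

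Named members were, in each comparison, the 8 highest and the 8 lowest fold changes (6 and 6 for the difference) with every array of both groups detected, up to 6 bounds per direction, the 2 largest changes per substrate class, a list of carriers, and the 10 highest mean levels. Partner genes were named if past the threshold for treatment in either line. Members, lists and rules were chosen with earlier results of these data known. Alternatives varied background correction, normalization, detection filter, probe summary, variance model, array weights, arrays fitted and a replicate block. The fit was tested on simulated data.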

Additional observations from a re-analysis of the deposited data

Results flagged for a closer look

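The treatment effect of 30 named solute carriers differed between the lines by limma's test of the difference itself. Values are the log2 fold change in HCC827-Del-TM minus that in HCC827-Del. They are grouped by direction and by kind of carrier, and no explanation was tested. For 8 of them at least 1 group had no detected array, so that the fitted value is not a measured size: SLC4A4, SLC16A9, SLC11A1, SLC10A4, SLC15A3, SLC9A2, SLC2A6 and SLC2A10. The calls for SLC16A9, SLC6A9 and SLC75A1 were lost with median scaling. That for SLC3A2 (adjusted p = 0.0498) was lost under 6 settings and 9 of the leave-one-out fits.

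For 13 members the log2 fold change was the higher one in HCC827-Del-TM. Among nucleotide sugar, organic acid, nucleoside and ascorbate-family carriers, the difference was 1.71 for SLC35D2, 1.31 for SLC16A4, 0.83 for SLC16A7, 0.76 for SLC28A3 and 0.75 for SLC23A3. It was 0.40 for SLC16A9, which was not detected on treated HCC827-Del-TM arrays. Among the neurotransmitter class it was 0.78 for SLC6A16 and 0.53 for SLC6A9. Among metal, lipid and choline carriers it was 0.76 for SLC39A11, 0.72 for SLC44A1 and 0.71 for SLC27A1. It was 0.62 for SLC4A4, which was not detected in HCC827-Del-TM, and 0.60 for SLC1A5.

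For the other 17 it was the lower one. In the SLC2 family the difference was -0.50 for SLC2A1, -0.83 for SLC2A3, -1.29 for SLC2A6 and -1.92 for SLC2A10. In amino acid and peptide carriers it was -0.28 for SLC3A2, -0.62 for SLC7A5, -1.03 for SLC15A3 and -1.46 for SLC1A7. In ion and metal carriers it was -0.75 for SLC31A2, a copper transporter, -0.81 for SLC20A1, -0.81 for SLC11A1, -1.18 for SLC9A2 and -1.19 for SLC39A3. It was -0.34 for SLC75A1 (MFSD10), -0.90 for SLC10A4, a bile acid family member, -0.94 for SLC35G2 and -1.06 for SLC5A6. SLC2A10, SLC15A3, SLC11A1 and SLC10A4 were detected on 0 arrays of HCC827-Del-TM, SLC2A6 and SLC9A2 on 0 treated arrays of that line, and SLC9A2, SLC11A1 and SLC10A4 on 0 DMSO arrays of HCC827-Del.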

How the results depend on the processing

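Other settings and leave-one-out fits were run for the 5 comparisons. No total of called members moved by over 1.5 times, and no named result past the threshold changed direction. Counts by direction did move. Median scaling gave 21 lower members in HCC827-Del where the main count was 37, 23 higher between the untreated lines where it was 39, 27 higher between the treated lines where it was 51, and 14 higher for the difference where it was 29. Keeping only members detected on all 12 arrays gave 35 higher in HCC827-Del (60 in the main count), 38 lower between the treated lines (62) and 26 lower for the difference (41), with fewer members tested. The named results include the largest changes by rule, so the share of them that was kept does not speak for all called members. Partner genes were not put through the alternatives. Of 175 named results past the threshold, 153 stayed past it under every alternative that gave a value and 22 were lost under at least 1. Those lost were SLC1A5, SLC30A1, SLC35G6 and SLC38A12 in HCC827-Del-TM, SLC19A1, SLC1A5, SLC39A10 and SLC7A5 in HCC827-Del, SLC22A15, SLC23A3, SLC35B3, SLC38A5, SLC44A1, SLC6A6 and SLC7A5 between the untreated lines, SLC2A3, SLC39A10 and SLC60A1 between the treated lines, and SLC16A9, SLC3A2, SLC6A9 and SLC75A1 for the difference. The cause was not tested. Leaving out each array in turn gave 67 to 80 called members in HCC827-Del-TM, 76 to 98 in HCC827-Del, 60 to 73 between the untreated lines, 97 to 114 between the treated lines and 61 to 73 for the difference. These fits held 161 to 172 members.

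The labels give replicate numbers 1 to 3 in each group. With the number as a replicate block, 76 members were called in HCC827-Del-TM, 94 in HCC827-Del, 75 between the untreated lines, 111 between the treated lines and 70 for the difference. No pairing of the arrays by number was visible. The deviations of 18 same-number pairs correlated at -0.0317 to 0.0522, with 0 over 0.1, and those of 36 other pairs at -0.0629 to 0.0405. Whether same-number arrays were prepared together cannot be told from these values. The block ended the call of the SLC3A2 difference. Signal near background limits members with an undetected group: their fold is a bound, and a difference of effects that rests on such a group is not a measured size.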

Other observations

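Of 31 members with several kept probes, 0 had probes past the threshold in opposite directions in any of the 5 comparisons. For some members, only part of the probes passed the threshold. This held for 8 in HCC827-Del-TM, 13 in HCC827-Del, 10 between the untreated lines, 10 between the treated lines and 9 for the difference. For SLC16A5, the tested probe gave -0.38 in HCC827-Del-TM and the other -0.12, which did not pass. For SLC71A2 (MFSD14B), the probe tested gave 0.16 in HCC827-Del, while its 3 other probes gave 0.70, 0.74 and 0.87. For SLC50A1, a sugar transporter, the tested probe gave -0.02 in HCC827-Del and the other -0.65. A second SLC7A6 probe gave -0.40 in HCC827-Del-TM and -0.41 in HCC827-Del, where the tested probe gave -0.86 in HCC827-Del-TM and -0.28 in HCC827-Del. These genes were chosen after their values were seen.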
